A study of Homo sapiens with 3 samples.

Results

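The 10 genes described here, AGO1, AGO2, AGO3, AGO4, DICER1, DROSHA, DGCR8, XPO5, TARBP2 and TNRC6A, encode the core proteins of RNA interference, and they were chosen by name as members of that machinery, out of 18417 genes with a value. Each had 1 probe set whose platform annotation names that gene alone, and all 10 passed the filter on dim genes. The samples were LNCaP cells, an established androgen-responsive human line from a prostate carcinoma metastasis, which were transfected with siRNA by RNAiMAX and harvested 72 hours later. A negative control siRNA was given to the cells of 1 array, siSE1 to those of the second and siSE2 to those of the third. Both siSE1 and siSE2 target SLC45A3-ELK4, a chimeric RNA that joins SLC45A3 to the neighbouring ETS factor gene ELK4. All 3 arrays therefore carry RNA of cells that had received an siRNA, and untransfected cells were not analysed here. The labels give the title siSE2 to an array whose transfection field names siSE1, so comparisons between siSE1 and siSE2 would be between repeats of 1 siRNA if that field is right. Nothing in the labels tells whether separate cultures were used, and p-values then measure only the spread between these arrays, which may be technical.

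MicroRNAs are cut out of longer transcripts in the nucleus by the Microprocessor, in which the ribonuclease DROSHA is held on the hairpin by DGCR8. XPO5 carries the hairpin to the cytoplasm, DICER1 with its partner TARBP2 cuts it to a short duplex, and an Argonaute protein keeps a single strand as its guide. A transfected siRNA enters at the Argonaute step, AGO2 being the human Argonaute known for efficient slicing of a fully paired target, and TNRC6A links Argonautes to the deadenylases that shorten the target's tail.

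The values are log2 probe set signals. Levels of different genes were not set against each other, since probes differ in brightness. Differences are the mean of the siRNA arrays minus the control array, with the moderated standard error (SE, n = 2 against 1) of limma fitted over 12892 genes. A gene was said to rise or fall only at a Benjamini-Hochberg adjusted p under 0.05. The gap between siSE1 and siSE2 supplies the only residual degree of freedom (1) of this fit, and the lone control array is taken to vary as they do. Moderation joins the variance from that gap to a prior variance pooled over all genes tested, which weighs as 8.46 degrees of freedom. On the control array the 8 luminal prostate markers with a value read from 6.39 to 11.8 (median 9.75), and all 8 passed the filter, which lay at 5.12. Only 3 of 5 basal, 6 of 10 fibroblast and stromal and 3 of 7 blood cell markers passed it, and no marker of these lists passed the test. Marker medians on the control, siSE1 and siSE2 arrays were 9.75, 9.64 and 9.72 for luminal, 5.17, 5.03 and 5.35 for basal, 5.42, 5.59 and 5.47 for stromal and 4.41, 4.77 and 4.80 for blood cell genes. The blood cell gene LYZ, whose value was the control median of its list, read 4.41, 6.09 and 5.11 in this order. In bulk RNA such as this, fewer cells of a type and less RNA per cell cannot be told apart.

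None of the 10 genes passed the test. Over all genes tested 0.248% passed as higher and 0.714% as lower with the siRNAs. AGO2 stood lowest relative to the control and AGO1 highest. At an unadjusted p under 0.05 (limma) AGO2 was lower and AGO1 higher, that is 1 of 10 genes in each direction, where 11.3% of all genes tested were lower and 6.46% higher. The median difference of the 10 genes was -0.11, with -0.093 for siSE1 and -0.12 for siSE2. All genes tested had a median of -0.019 with quartiles at -0.19 and 0.14. The siRNAs share the control array, so a deviation of that array enters both changes of every gene.

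**Figure D1:**
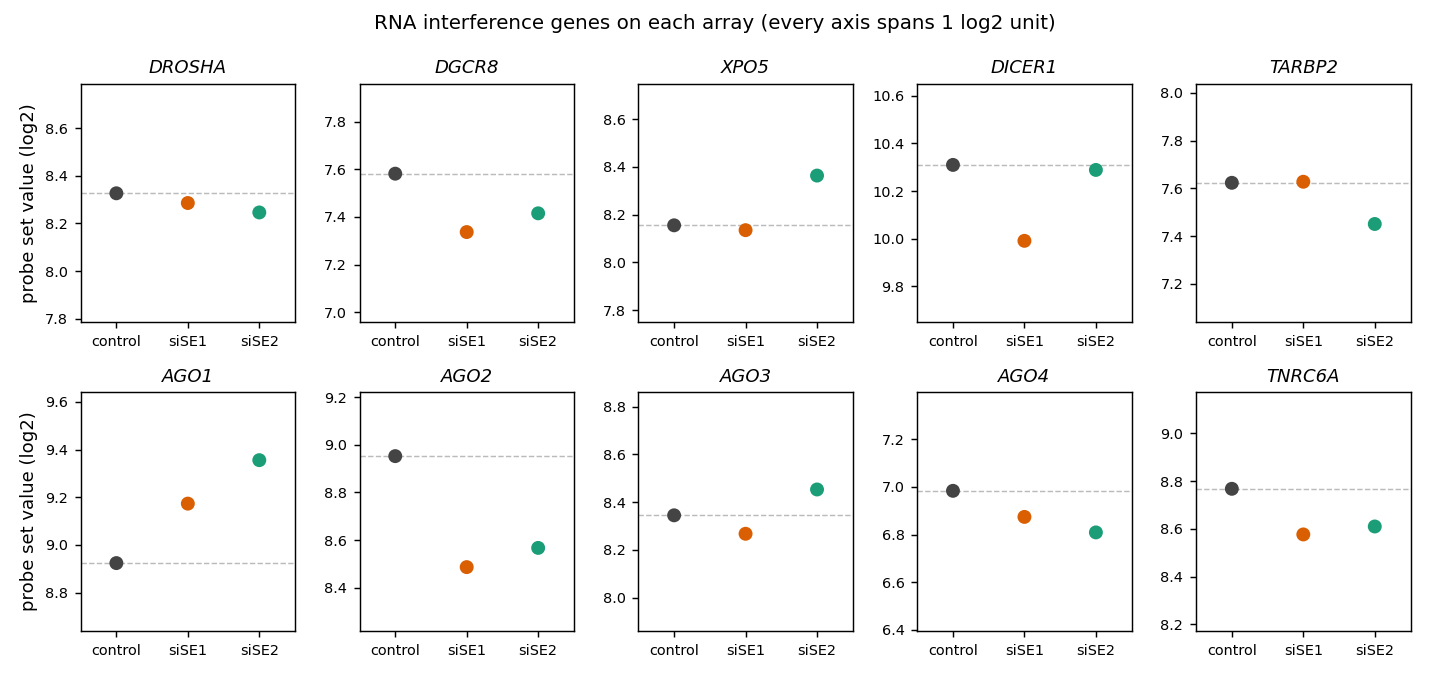
Log2 probe set value of each RNA interference gene on the control, siSE1 and siSE2 arrays (1 point per array; the dashed line marks the control value, and every axis spans 1 log2 unit). AGO2 lies below the control line on both siRNA arrays and AGO1 above it, while DICER1 is lower with siSE1 (9.99) and near the control (10.31) with siSE2 (10.29).

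The Argonautes, which hold the guide strand, stood on different sides of the control. AGO2, the slicing Argonaute, read 8.95 after the control siRNA, 8.49 after siSE1 and 8.57 after siSE2. Both siRNA arrays lay below the control, and they were 0.081 apart. The difference was -0.43 ± 0.14 (SE), 1.34-fold lower, and did not pass (limma, adjusted p = 0.172). Its unadjusted 95% interval ran from -0.75 to -0.10. With siSE1 AGO2 was 1.38-fold lower and with siSE2 1.31-fold lower, so it was the only one of the 10 genes at least 1.2-fold lower on both arrays, a size met by 11.4% of all genes tested. Differences lower than that of AGO2 were found in 7.42% of genes tested.

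AGO1, which lacks strong slicing activity and acts in microRNA silencing, stood above the control. Its values were 8.92 after the control siRNA, 9.17 after siSE1 and 9.36 after siSE2. The control lay below both siRNA arrays, by 0.25 and 0.43. The difference was 0.34 ± 0.15 (SE), 1.27-fold higher, and did not pass (limma, adjusted p = 0.277). The unadjusted 95% interval, from 0.0039 to 0.68, reached nearly to 0. With siSE1 AGO1 was 1.19-fold higher and with siSE2 1.35-fold higher, so it fell just short of 1.2-fold on both arrays, which none of the 10 genes reached upward and 6.76% of all genes tested did. With quantile normalization or cyclic loess it passed that size (1.22-fold and 1.23-fold higher with siSE1), and with equal array medians it did not (1.16-fold). The change of AGO1 exceeded that of AGO2 by 0.71 with siSE1 and by 0.82 with siSE2, a gap between these genes that was noticed in the data and has no test of its own.

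AGO4, AGO1 and AGO3 follow one another on chromosome 1, between CLSPN and TEKT2 and with no other protein-coding gene among them in the RefSeq gene table, whereas AGO2 is on chromosome 8. The neighbours of AGO1 lay closer to the control than AGO1 did. AGO3, whose protein can slice only particular targets, read 8.34 after the control siRNA, 8.27 after siSE1 and 8.45 after siSE2. The siRNA arrays lay on either side of the control, and the difference was 0.015 ± 0.15 (SE; limma, adjusted p = 0.969), or -0.024 with equal array medians. AGO4, an Argonaute without slicing activity, read 6.98, 6.87 and 6.81 in the same order. Both siRNA values lay slightly below the control, by -0.14 ± 0.14 (SE; limma, adjusted p = 0.637). The unadjusted intervals, from -0.32 to 0.35 for AGO3 and from -0.46 to 0.18 for AGO4, leave room for changes as large as those of AGO1 or AGO2 in a single direction each. The Argonaute genes are paralogs, and the sources used here do not say how far their probes are specific.

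**Figure D2:**
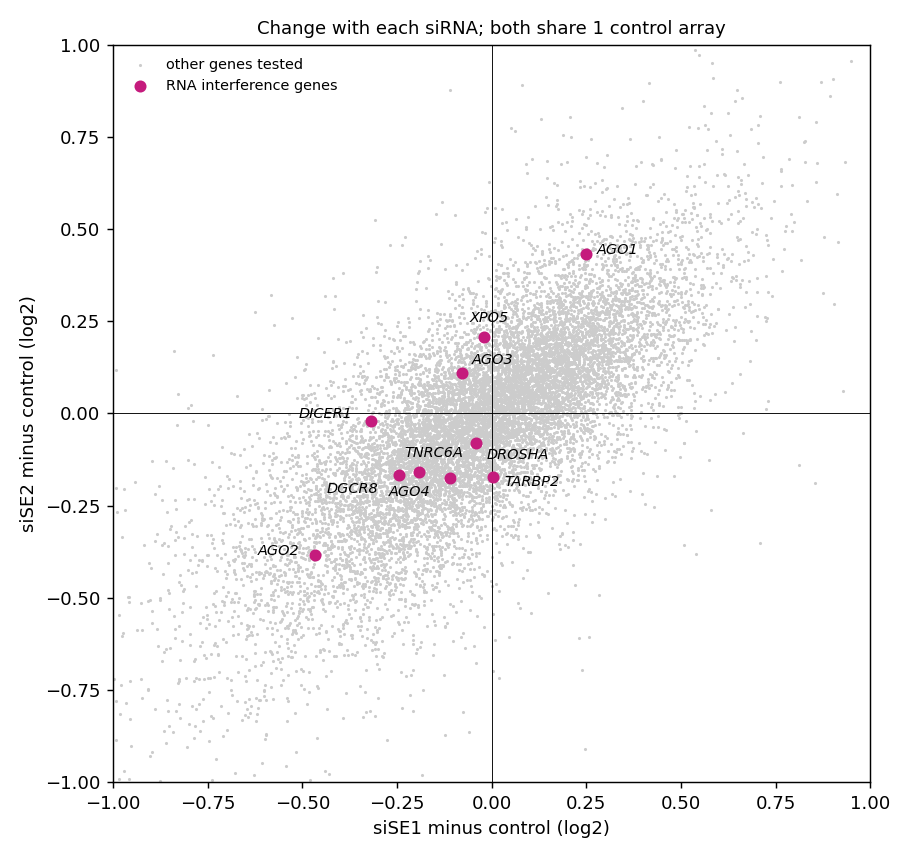
Change of each gene with siSE1 (horizontal) and siSE2 (vertical) relative to the shared control array, in log2; the 10 RNA interference genes are labelled, grey points are the other genes tested, and 107 genes lie outside the axes. AGO2 lies at -0.47 and -0.38 and AGO1 at 0.25 and 0.43, both within the cloud of other genes.

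By the smallest Euclidean distance between the pair of changes, the genes most like AGO2 over the siRNA arrays were USP47, a deubiquitinase gene, DCTN5, which encodes a dynactin subunit, and MAPDA, with distances of 0.0040, 0.0057 and 0.0078. USP47 read 7.23 after the control siRNA, 6.76 after siSE1 and 6.84 after siSE2, a difference of -0.43 ± 0.14 (SE). DCTN5 differed by -0.42 and MAPDA by -0.43. With 3 arrays such a likeness describes just 2 values per gene.

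In the nucleus, the Microprocessor genes were slightly below the control on both siRNA arrays. DGCR8, the RNA-binding subunit, read 7.58 after the control siRNA, 7.34 after siSE1 and 7.42 after siSE2. The difference was -0.21 ± 0.14 (SE; limma, adjusted p = 0.487), and the unadjusted interval ran from -0.53 to 0.11. DROSHA, the catalytic subunit, read 8.33, 8.29 and 8.25, the smallest downward difference of the 10 genes (-0.061 ± 0.14, SE; limma, adjusted p = 0.859). Its siRNA values lay within 0.080 of the control, and with quantile normalization or cyclic loess the siSE1 value was the higher one, by 0.021 and 0.013. The interval for DROSHA, from -0.38 to 0.26, allows a change of up to those sizes.

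XPO5, the export receptor for precursor hairpins, read 8.16 after the control siRNA, 8.14 after siSE1 and 8.36 after siSE2. The siSE2 array alone stood off the control, by 0.21, and the mean difference was 0.094 ± 0.15 (SE; limma, adjusted p = 0.793). XPO5 overlaps POLR1C in the gene table, and POLR1C differed by -0.090.

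The genes of the dicing step differed in which array stood apart. DICER1 read 10.31 after the control siRNA, 9.99 after siSE1 and 10.29 after siSE2. The siSE1 array was 1.25-fold lower than the control and the siSE2 array 1.01-fold lower. The mean difference was -0.17 ± 0.16 (SE; limma, adjusted p = 0.623). This error was the widest of the 10 genes, as was the gap between the siRNAs, which enters it beside the variance pooled over all genes. TARBP2, the double-stranded RNA-binding partner of DICER1, read 7.62, 7.63 and 7.45, so the siSE1 array matched the control within 0.0044 and the siSE2 array was 1.13-fold lower. The mean difference of TARBP2 was -0.084 ± 0.15 (SE; limma, adjusted p = 0.809), and MAP3K12, which overlaps it, differed by 0.071 with siSE1 and -0.18 with siSE2.

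TNRC6A, the GW182-family scaffold, read 8.77 after the control siRNA, 8.58 after siSE1 and 8.61 after siSE2. Both siRNA arrays lay below the control and within 0.033 of each other. The difference was -0.17 ± 0.14 (SE; limma, adjusted p = 0.553), with an unadjusted interval from -0.49 to 0.14.

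Between siSE1 and siSE2, with 1 array each and no test, DICER1 was the only one of the 10 genes at least 1.2-fold apart (1.23-fold, higher with siSE2). Such a gap was found in 16.8% of all genes tested. XPO5 was 1.17-fold, AGO3 1.14-fold and AGO1 1.13-fold higher with siSE2, and TARBP2 was 1.13-fold lower. The gaps of the other 5 genes ran from 1.02-fold to 1.06-fold. None of the 10 genes was 1.5-fold from the control on both arrays, a size that 0.582% of all genes tested reached upward and 1.53% downward.

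**Figure D3:**
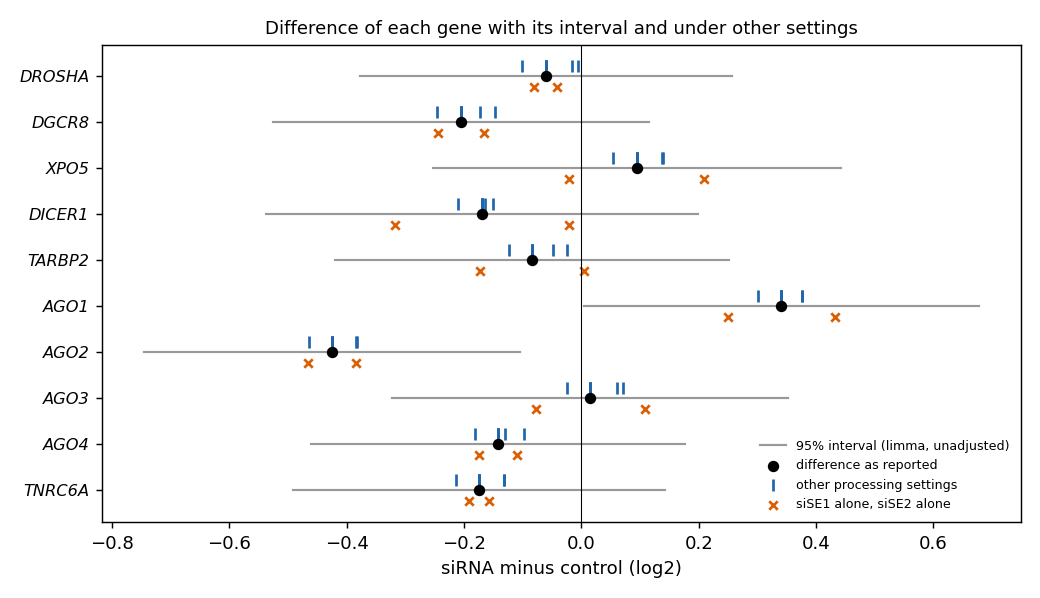
Difference of each gene from the control (mean of the siRNA arrays; black point, log2), with its unadjusted 95% limma interval (grey line), its values under other processing settings (blue ticks) and with each siRNA alone (orange crosses). The intervals of AGO1 and AGO2 leave out 0, that of AGO1 by 0.0039, and the siSE1 and siSE2 crosses of AGO3, XPO5 and TARBP2 lie on either side of it.

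The targeted chimera includes ELK4, whose protein binds DNA, and promoter windows of the RNA interference genes were searched for CCGGAAG, a core sequence of the ELK family, on both strands. RefSeq windows (GRCh38.p14) run from 250 bases before to 50 after an annotated start, and 9 of the 10 genes, all but AGO2, were searched in 15 of them. A match was found in 2 of these windows, 1 each for AGO3 and TNRC6A, and in 10.3% of the 35116 windows of all genes. The windows with a match and the single window of AGO1, the gene that stood highest, are shown 5′ to 3′ on the plus strand with the matches in capitals. They lie at chr1:35930855-35931154 (AGO3), chr16:24729401-24729700 (TNRC6A) and chr1:35882959-35883258 (AGO1).
AGO3: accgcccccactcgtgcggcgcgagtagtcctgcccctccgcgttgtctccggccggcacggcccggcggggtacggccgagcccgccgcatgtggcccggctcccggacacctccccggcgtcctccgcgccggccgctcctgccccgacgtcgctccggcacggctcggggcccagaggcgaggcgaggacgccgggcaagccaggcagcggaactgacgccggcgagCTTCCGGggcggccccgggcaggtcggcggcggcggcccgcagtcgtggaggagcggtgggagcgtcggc
TNRC6A: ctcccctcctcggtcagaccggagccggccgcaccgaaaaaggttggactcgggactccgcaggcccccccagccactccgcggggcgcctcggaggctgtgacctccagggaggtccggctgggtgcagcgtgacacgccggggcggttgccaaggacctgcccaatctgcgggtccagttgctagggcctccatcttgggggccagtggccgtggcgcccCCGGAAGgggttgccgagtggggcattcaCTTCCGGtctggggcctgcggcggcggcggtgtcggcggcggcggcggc
AGO1: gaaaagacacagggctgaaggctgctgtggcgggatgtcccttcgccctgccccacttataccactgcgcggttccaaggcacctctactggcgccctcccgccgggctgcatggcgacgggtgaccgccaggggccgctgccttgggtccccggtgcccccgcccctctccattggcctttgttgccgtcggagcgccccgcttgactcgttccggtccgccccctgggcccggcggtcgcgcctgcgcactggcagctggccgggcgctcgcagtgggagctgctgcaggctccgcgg
The AGO3 match begins 20 bases before the start site. TNRC6A has a match that begins 28 bases before its start site and another, on the opposite strand, that begins at base 2 after it. The genes with a match differed by 0.015 (AGO3) and -0.17 (TNRC6A). AGO1, without a match in its window, differed by 0.34, but it was shown because it stood highest. The other genes searched, also without a match, ran from -0.21 (DGCR8) to 0.094 (XPO5). A match is a run of letters in this window and does not show binding.

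Other genes of the pathway were taken in lists by role, and none of the 101 tested members passed the test (limma; at an unadjusted p under 0.05, 6 were higher and 6 lower, against shares of 6.46% and 11.3% over all genes). The 18 tested processing partners had a median difference of -0.13, with 0 of 18 past 1.2-fold upward on both arrays (6.76% over all genes) and 1 downward (11.4%). That gene was HNRNPA2B1, a reader of marked primary microRNAs, at -0.32 ± 0.14 (SE; limma, adjusted p = 0.282). ERH, a Microprocessor cofactor, differed by 0.30 and ADARB1, an RNA-editing enzyme gene, by 0.21, while NCBP2, a cap-binding subunit gene, differed by -0.24. Among 14 tested genes of precursor tailing and turnover the median was -0.0058 (-0.026 for siSE1, 0.043 for siSE2), with 3 genes 1.2-fold higher and 1 lower on both arrays (6.76% and 11.4% over all genes). TENT4B and TUT1, terminal nucleotidyltransferase genes, differed by 0.35 and 0.29, and ZSWIM8, a ubiquitin ligase receptor gene that acts in target-directed microRNA decay, by 0.33, or by 0.12 by its brightest probe set. PNPT1, a mitochondrial exoribonuclease gene, differed by -0.42.

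Chaperones and partners that load or accompany Argonautes had a median of 0.092 over 18 genes, with 1 at least 1.2-fold higher and 0 lower on both arrays (6.76% and 11.4% over all genes). PTGES3, the HSP90 cochaperone p23, read 9.24 after the control siRNA, 10.16 after siSE1 and 9.71 after siSE2. It stood above the control on both arrays, 1.61-fold in the mean, and did not pass (0.69 ± 0.19, SE; limma, adjusted p = 0.113). TRIM71, a ubiquitin ligase gene, differed by 0.30 (0.41 with siSE1, 0.19 with siSE2), and FMR1, which encodes an RNA-binding protein, by -0.27 (-0.35 and -0.18). IPO8, an importin gene, differed by 0.24.

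Silencing effectors downstream of TNRC6A had a median of 0.0046 over 20 genes (-0.045 for siSE1, 0.078 for siSE2), with 0 at least 1.2-fold higher and 1 lower on both arrays (6.76% and 11.4% over all genes). CNOT8, a deadenylase subunit of the CCR4-NOT complex, read 8.02 after the control siRNA, 7.40 after siSE1 and 7.53 after siSE2. Both siRNA values were below the control (-0.55 ± 0.15, SE; limma, adjusted p = 0.0989). TOB2, which recruits that complex, differed by 0.40 (0.17 with siSE1, 0.62 with siSE2), and CNOT10 by -0.28 (-0.17 and -0.38). PAN2, another deadenylase gene, differed by 0.24. The 20 decapping and P body genes had a median of 0.0080 (-0.059 for siSE1, -0.0052 for siSE2), with 1 higher and 3 lower by at least 1.2-fold on both arrays (6.76% and 11.4% over all genes). LSM2, of the LSM rings that serve both mRNA decay and splicing, read 8.35, 7.51 and 7.80 (-0.69 ± 0.16, SE; limma, adjusted p = 0.0765), and LSM5 and LSM4 differed by -0.51 and -0.41. DCP2, the decapping enzyme gene, differed by 0.36.

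The PIWI clade and its cofactors make germline piRNAs, and the list drawn up for them also took in TDRD3 as a Tudor-domain gene. Of this list 14 of 17 genes with a value lay below the filter, and the other 3, PLD6, TDRKH and TDRD3, differed by 0.15, -0.19 and 0.081. Most of the difference of TDRKH and TDRD3 lay on the siSE1 array (-0.34 and 0.15, against -0.043 and 0.017 with siSE2). Double-stranded RNA sensors and interferon genes, which long duplexes can induce, had 10 of 18 genes below the filter. The 8 tested had a median of 0.082, or -0.045 with no filter, with 2 genes 1.2-fold higher and 1 lower on both arrays (6.76% and 11.4% over all genes). ISG20 and ISG15 differed by 0.42 and 0.33, and OAS3 and EIF2AK2 by -0.56 and -0.24.

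**Figure D4:**
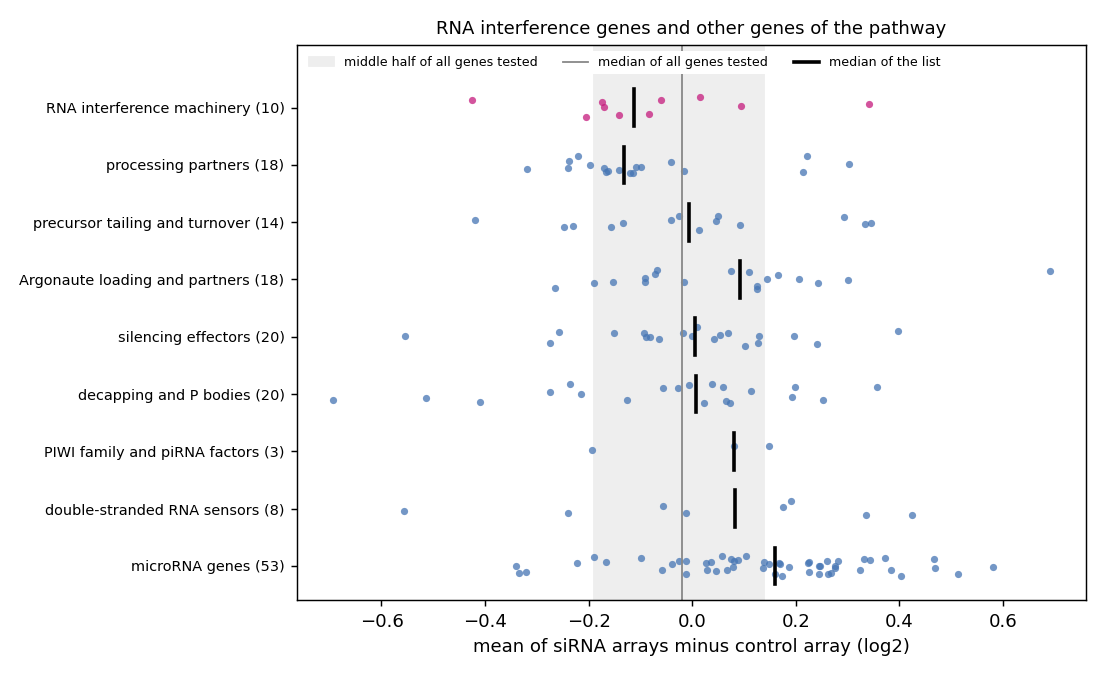
Difference of the siRNA mean from the control (log2) for each tested gene of each list, with the number tested in parentheses; black bars are list medians, the grey line is the median of all genes tested (-0.019) and the grey band runs between their quartiles. The RNA interference genes have a median of -0.11 and the microRNA genes, most of them dim, one of 0.16, or 0.080 with no filter.

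The array also carries probe sets named for microRNA genes, the substrates of this machinery. They were labelled from total RNA with a whole-transcript kit, and whether the signal comes from the primary transcript, a host RNA or the hairpin cannot be told apart. Of 173 such genes 120 lay below the filter. The 53 tested had a median difference of 0.16, and of 0.15 both with siSE1 and with siSE2, with 7 genes at least 1.2-fold higher and 2 lower on both arrays (6.76% and 11.4% over all genes), and none passed the test (limma; at an unadjusted p under 0.05, 8 were higher and 2 lower, where 6.46% and 11.3% of all genes tested were). They were dim: 41 of them averaged under 6.5, with a median of 0.14, and the 4269 genes of all kinds tested under that level had a median of 0.070. With no filter the microRNA genes had a median of 0.080, and a stricter filter, at the 50th percentile, gave 0.22.

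The microRNA genes that stood furthest above the control on both arrays are shown by their mature 5p strand from RefSeq (GRCh38.p14), where that table holds it, with the seed (bases 2 to 8, which pair with targets in an Argonaute) in capitals. The let-7g strand, from a gene chosen after its values were seen, is shown because it shares its seed with let-7c. They lie at chr21:16539838-16539859 (plus strand, let-7c), chr3:52268336-52268357 (minus strand, let-7g), chr19:13874725-13874746 (plus strand, miR-181c) and chr19:51692618-51692639 (plus strand, miR-99b).
hsa-let-7c-5p: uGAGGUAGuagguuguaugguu
hsa-let-7g-5p: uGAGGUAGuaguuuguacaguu
hsa-miR-181c-5p: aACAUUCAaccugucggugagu
hsa-miR-99b-5p: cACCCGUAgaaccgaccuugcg
The let-7c and let-7g strands are alike at 19 of 22 bases and differ, counted from the 5′ end of let-7c, by G12U, U18C and G19A. MIRLET7C read 7.01 after the control siRNA, 7.48 after siSE1 and 7.48 after siSE2 (0.47 ± 0.14, SE; limma, adjusted p = 0.134), and MIRLET7G read 5.63, 5.28 and 5.31 (-0.34 ± 0.14, SE; limma, adjusted p = 0.256). Of 14 genes with this seed in the RefSeq table, 10 had a probe set of their own and 4 passed the filter. The others of these 4, MIRLET7D and MIRLET7I, differed by 0.25 and 0.035, so of these 4 MIRLET7G alone had a mean below the control, and none of the 4 passed. It was not alone among the dimmer genes with this seed, which were not tested. There MIR98, MIRLET7E, MIRLET7F1 and MIRLET7F2 had means below the control (-0.34, -0.10, -0.49 and -0.23), and MIRLET7A1 and MIRLET7A2 above it (0.12 and 0.16). The transcripts in which they lie, MIR99AHG for MIRLET7C and WDR82 for MIRLET7G, differed by 0.090 and -0.10, the second turning sign between siSE1 (-0.22) and siSE2 (0.022). MIR181C read 5.59, 6.10 and 6.23 in the same array order (0.58 ± 0.15, SE; limma, adjusted p = 0.0914). MIR99B differed by 0.47 and MIR150 by 0.51. NANOS3, which overlaps MIR181C in the gene table, differed by 0.18 and SPACA6, which overlaps MIR99B, by -0.17. Among 12 tested microRNA host genes the median was 0.056, and 0 were 1.2-fold from the control on both arrays in either direction (6.76% higher and 11.4% lower over all genes). MIR646HG differed by -0.50 and MIR17HG, host of the miR-17 cluster, by -0.37, both further from the control with siSE1 (-0.76 and -0.56) than with siSE2 (-0.25 and -0.18), and MIR22HG and MIR503HG differed by 0.17 and 0.11.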

How the data were processed

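The authors deposited 1 table of log2 probe set values, 33297 rows and 1 column per array, produced, per the submitters' processing notes, in Affymetrix Expression Console. Its version and algorithm, the background correction and the build were not given in the sources used here. The log2 scale was taken from the range of the deposited values (1.43 to 13.9) and array medians of 5.80, 5.84 and 5.84. A platform annotation of GEO named 1 gene for 19460 probe sets and several for 1754. Of the 19460, 19429 matched RefSeq's gene table (GRCh38.p14, names and gene order only) by gene identifier. Probe sets of 1 gene were averaged, giving 18417 genes, and the 5525 genes with a mean below the 30th percentile (5.12) were left out. limma 3.58.1 (R 4.3.3; lmFit, eBayes, Benjamini-Hochberg) compared the siRNA arrays with the control array over 12892 genes. Sizes of at least 1.2-fold or 1.5-fold on both siRNA arrays were counted without a test. On simulated data of 12892 genes for this comparison, 97 of 100 genes changed by 1 and 100 of 100 changed by 2 (log2) were recovered, with 19 false calls. The noise was drawn from the fit's own variance prior, independently for each array. No change under 1 was simulated, so recovery at the smaller differences of the RNA interference genes is not known. Precision is limited by the number of arrays.

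The genes and lists were chosen with earlier results of these data known. Named are the 10 genes; from each list up to 4 genes that both siRNAs shifted one way, ranked by the lesser shift; and the 3 genes nearest to the RNA interference gene with the largest difference. WDR82, MIR99AHG, NANOS3, SPACA6, POLR1C, MAP3K12 and the genes with the let-7 seed other than MIRLET7C were chosen after their values were seen. Alternatives were 3 normalizations, 2 filters, the highest probe set per gene, a trended prior and each siRNA alone.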

Additional observations from a re-analysis of the deposited data

How the results depend on the processing

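No paired analysis was possible because the control group holds 1 array. Under the 7 alternatives with a test, 0 of the 70 values of the 10 RNA interference genes passed (limma), and 1 changed sign: AGO3, at -0.024 with equal array medians. Among these 7 only the normalizations could turn a sign of these genes. The filters and the trended prior leave a difference as it was, and so does the highest probe set for genes with 1 probe set each. The adjusted p ranged from 0.143 to 0.263 for AGO2 (differences from -0.46 to -0.38) and from 0.236 to 0.362 for AGO1 (0.30 to 0.38). The small differences of DROSHA (-0.10 to -0.0059), TARBP2 (-0.12 to -0.025) and XPO5 (0.054 to 0.14) kept their sign under the normalizations. With siSE1 alone, however, XPO5 was -0.020 and TARBP2 0.0044. The median of the 10 genes was -0.062 with quantile normalization, -0.15 with equal array medians and -0.089 with cyclic loess, and with a single siRNA it ran from -0.12 to -0.093. Over all genes tested, those passing as higher numbered 63 with quantile normalization, 21 with equal array medians, 52 with a trended prior, 1 with no filter and 15 when filtered at the 50th percentile, against 32, and those passing as lower numbered 0 with no filter, where 1.2-fold higher genes on both arrays numbered 1338, and 20 at the 50th-percentile filter, against 92. That filter left 474 genes higher at an unadjusted p under 0.05 and 494 genes 1.2-fold higher on both arrays. A single siRNA gave 1476 to 1798 genes at least 1.2-fold higher, 2124 to 2616 lower, 155 to 187 genes at least 1.5-fold higher and 364 to 551 lower. The fit has no test with 1 siRNA array. Of 305 tested values of 45 other named genes under the alternatives 0 passed and 0 turned in sign, though WDR82 and MAP3K12 differ in sign between the siRNAs. The 2 filters and the trended prior cannot change a difference. Genes from the lists were also named for shifts in the same direction on both arrays, so few of these signs could turn. Of 81 alternative values of list medians 23 moved by more than the spread between the siRNAs, among them that of the double-stranded RNA sensors, from 0.082 to -0.057 with the stricter filter. For microRNA genes the siSE1 and siSE2 medians nearly coincided (0.150 and 0.148), as did those of host genes (0.046 and 0.041). In these lists even small shifts were therefore counted as moved. The cause of these shifts was not tested. Values near the filter level are the least certain, and 1 control array limits every comparison.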
